A study of Homo sapiens with 12 samples.

Results

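Immune checkpoint ligands are surface or secreted proteins through which a tumour cell restrains T cells, natural killer cells or macrophages. The genes described here are 7 such ligands in 2 human metastatic melanoma cell lines: CD274, PDCD1LG2, CD276, LGALS9, PVR, PVRL2 (now named NECTIN2) and CD47. They are all rows of the deposited count table, 7 of 75253, whose symbol is on that list. The set was chosen by the low CD274 count in A375 cells given 6-thio-dG, which was known from earlier results of these data, together with the symbols of related ligands. The contrasts that use those libraries are therefore given as a description with no test. All 7 passed the low-count filter.

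The libraries came from A375 and LOX-IMVI BR cells exposed to 6-thio-dG at 5 µM, to BIBR1532 at 25 µM or to a control, with 2 biological replicates for each line and treatment and 12 libraries in all. 6-thio-dG is a nucleoside analogue that telomerase can build into telomeres, and BIBR1532 is a small-molecule inhibitor of telomerase. All cells were grown in 6-well plates. What BR stands for, the vehicle of the control and the length of exposure are not given in the sources used here. Nor is it given whether the replicates were separate cultures, so p-values measure the spread between these libraries. The test fits that spread over all 12 libraries, not over the compared groups alone. The doses of the compounds differ, so a contrast between them is one between those doses. Bulk libraries cannot tell fewer cells of a type from less RNA per cell.

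PD-L1, the product of CD274, and PD-L2, the product of PDCD1LG2, bind the receptor PD-1 on T cells and dampen their response. CD274 is known to be induced by interferon gamma through JAK kinases and IRF1, and factors such as MYC, AP-1 and STAT3 have been reported at its promoter. PVR and PVRL2 bind the inhibitory receptor TIGIT and the activating receptor CD226, galectin-9 (LGALS9) binds TIM-3, CD47 binds SIRPA on macrophages as a signal against engulfment, and CD276 encodes B7-H3, a B7 family protein whose receptor is not settled.

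Levels are CPM, the reads of a gene scaled to a common library total with TMM factors, and are given per library or as mean ± SD of 2 libraries. Library totals ranged from 11813388 to 25822381 counts. Replicates lay closer together in LOX-IMVI BR, with a median absolute log2 difference of 0.135 to 0.207 between the libraries of a group, than in A375 under 6-thio-dG (0.707) or control (0.685). With 6-thio-dG, fits of the line alone called 62.8% of rows in LOX-IMVI BR and 5.11% in A375, at an adjusted p under 0.05. The fit over all 12 libraries called 17% and 18.1%. A375 control replicate 2 had a TMM factor of 0.746, against 1.037 in replicate 1. The melanocyte factor SOX10 averaged 0.592 to 0.809 CPM in the LOX-IMVI BR groups, in which 6 of 8 melanocyte markers lay under 1 CPM, and 422 to 1330 CPM in the A375 groups. Of 14 leukocyte markers, 11 to 14 lay under 1 CPM in every group, and their summed level was 1.31 to 10.4 CPM in any library.

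The promoter of CD274 is shown because the regulators followed below act on it, and that of LGALS9 because it was the other promoter of the set with paired GAAA letters. Both are 250 bases before to 50 after the start in RefSeq, build GRCh38.p14, at chr9:5450292-5450591 and chr17:27630938-27631237, plus strand. Capitals mark the matches.
CD274: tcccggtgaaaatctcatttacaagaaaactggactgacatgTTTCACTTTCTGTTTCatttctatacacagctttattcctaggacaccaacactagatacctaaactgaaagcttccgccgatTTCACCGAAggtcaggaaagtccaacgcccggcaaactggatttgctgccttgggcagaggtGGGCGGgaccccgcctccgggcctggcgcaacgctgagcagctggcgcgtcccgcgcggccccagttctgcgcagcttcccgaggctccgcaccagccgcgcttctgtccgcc
LGALS9: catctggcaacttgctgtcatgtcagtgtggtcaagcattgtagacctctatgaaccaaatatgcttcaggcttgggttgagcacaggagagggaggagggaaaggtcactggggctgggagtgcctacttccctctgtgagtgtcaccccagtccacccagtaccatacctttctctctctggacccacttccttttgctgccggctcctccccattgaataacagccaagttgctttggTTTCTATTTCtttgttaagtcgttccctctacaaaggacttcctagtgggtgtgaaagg
A pair of GAAA separated by any 2 bases, a motif of the interferon response type, was searched on both strands and found in 3.57% of 35116 promoters. In CD274 it matched as 2 overlapping copies starting 208 and 202 bases before the start, and in LGALS9 once, 9 bases before it, in each case as the reverse complement. TTCNNNGAA, of the GAS type, matched in CD274 at 125 bases before the start and in 7.66% of all promoters. GGGCGG matched in CD274 at 63 bases before the start and in 45% of all promoters. It also matched 7 times in CD276, 6 times in CD47 and 3 times in PVRL2, and not in PVR or LGALS9. The different motifs did not overlap each other in CD274. TGANTCA (7.71% of promoters) and CACGTG (7.26%) matched in none of the 6 genes with a promoter in the table. CD276, PVR, PVRL2 and CD47 held no GAAA pair, and PDCD1LG2 is named only. A match is a description of letters and not of a bound site.

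CD274 was lower than control under both compounds in A375, but in LOX-IMVI BR it rose with BIBR1532 and was low with 6-thio-dG. In A375 its level was 4.51 and 7.66 CPM in the 6-thio-dG libraries, 40.1 and 51.9 CPM in the BIBR1532 libraries and 317 and 141 CPM in the control libraries. The 3 groups did not overlap. With 6-thio-dG the mean was 6.08 ± 2.22 CPM (n = 2), against 229 ± 124 CPM in control (n = 2), 37.6-fold lower on the ratio of means, with a log2 fold change of -5.23 ± 0.46 (SE). The 6-thio-dG libraries held 54 and 114 reads of the gene, against 8468 and 1553 in the control libraries.

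With BIBR1532 in A375, CD274 fell 4.97-fold to 46 ± 8.37 CPM, and the log2 fold change was -2.31 ± 0.40 (edgeR quasi-likelihood, Benjamini-Hochberg adjusted p = 0.00178). This comparison shares its control libraries with the 6-thio-dG one by which the set was chosen, and its p-value does not allow for that choice. Of the melanocyte markers, SOX10 averaged 1330 CPM with BIBR1532 and 551 CPM in control, while MITF averaged 8.05 CPM with BIBR1532 and 40.0 CPM in control. The 8 markers, mostly SOX10, summed to 1301 and 1464 CPM with BIBR1532, against 572 and 644 CPM in control, and TYR was at 0 counts in both; their part in the result was not tested. The fall remained past the threshold in every alternative tried, at log2 values of -2.78 to -1.32. It was smaller without A375 control replicate 1 (-1.61, adjusted p = 0.00882) and after removal of the GC trend of each library (-1.43, adjusted p = 0.0108).

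In LOX-IMVI BR, CD274 stood at 11.6 and 11.7 CPM with 6-thio-dG, 188 and 129 CPM with BIBR1532, and 27.6 and 24.9 CPM in control. Again no groups overlapped. BIBR1532 raised it 6.04-fold (log2 fold change 2.59 ± 0.40, edgeR adjusted p = 0.0017). The call was lost without LOX-IMVI BR control replicate 2 (log2 2.52, adjusted p = 0.0559). With 6-thio-dG the log2 fold change was -1.17 ± 0.39 and did not pass the threshold (edgeR adjusted p = 0.0507). It passed, among other alternatives, with the DESeq2 test (adjusted p = 0.0373), without the low-count filter (0.00635), and without any single A375 control or A375 6-thio-dG library (0.012 to 0.0197).

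The effect of BIBR1532 on CD274 differed between the lines. The LOX-IMVI BR effect minus the A375 effect was 4.91 ± 0.56 on the log2 scale (edgeR adjusted p = 0.000483), and both libraries of each treated group lay beyond both of its control. In LOX-IMVI BR the compounds also differed directly, at -3.76 ± 0.42 for 6-thio-dG over BIBR1532 (edgeR adjusted p = 3.51e-05, 13.6-fold lower). The same difference in A375 was -2.91 ± 0.42, and the 6-thio-dG effect of LOX-IMVI BR minus that of A375 was 4.06 ± 0.57; both use the A375 6-thio-dG libraries and are given as a description. Between the controls, CD274 was 8.70-fold lower in LOX-IMVI BR than in A375 (log2 -3.12 ± 0.41, edgeR adjusted p = 2e-05). The control contrast and the BIBR1532 difference use the A375 control libraries of the contrast by which the set was chosen. Their p-values do not allow for that choice. The CD274 values named next were smaller without A375 control replicate 1. The control difference was then -2.41 (adjusted p = 0.000144), the BIBR1532 difference between the lines 4.2 (0.000792), the 6-thio-dG value in A375 -4.54 and the 6-thio-dG difference between the lines 3.35. After GC removal the BIBR1532 difference was 3.83 (adjusted p = 0.00101), the control difference -3.85 (8.9e-06) and the 6-thio-dG value in A375 -4.38.

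By level, CD274 was highest in A375 control and next in LOX-IMVI BR with BIBR1532, whose libraries overlapped. Below these, in steps without overlap, came A375 with BIBR1532, LOX-IMVI BR control, LOX-IMVI BR with 6-thio-dG and A375 with 6-thio-dG. The highest group mean was 37.6 times the lowest.

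**Figure D1:**
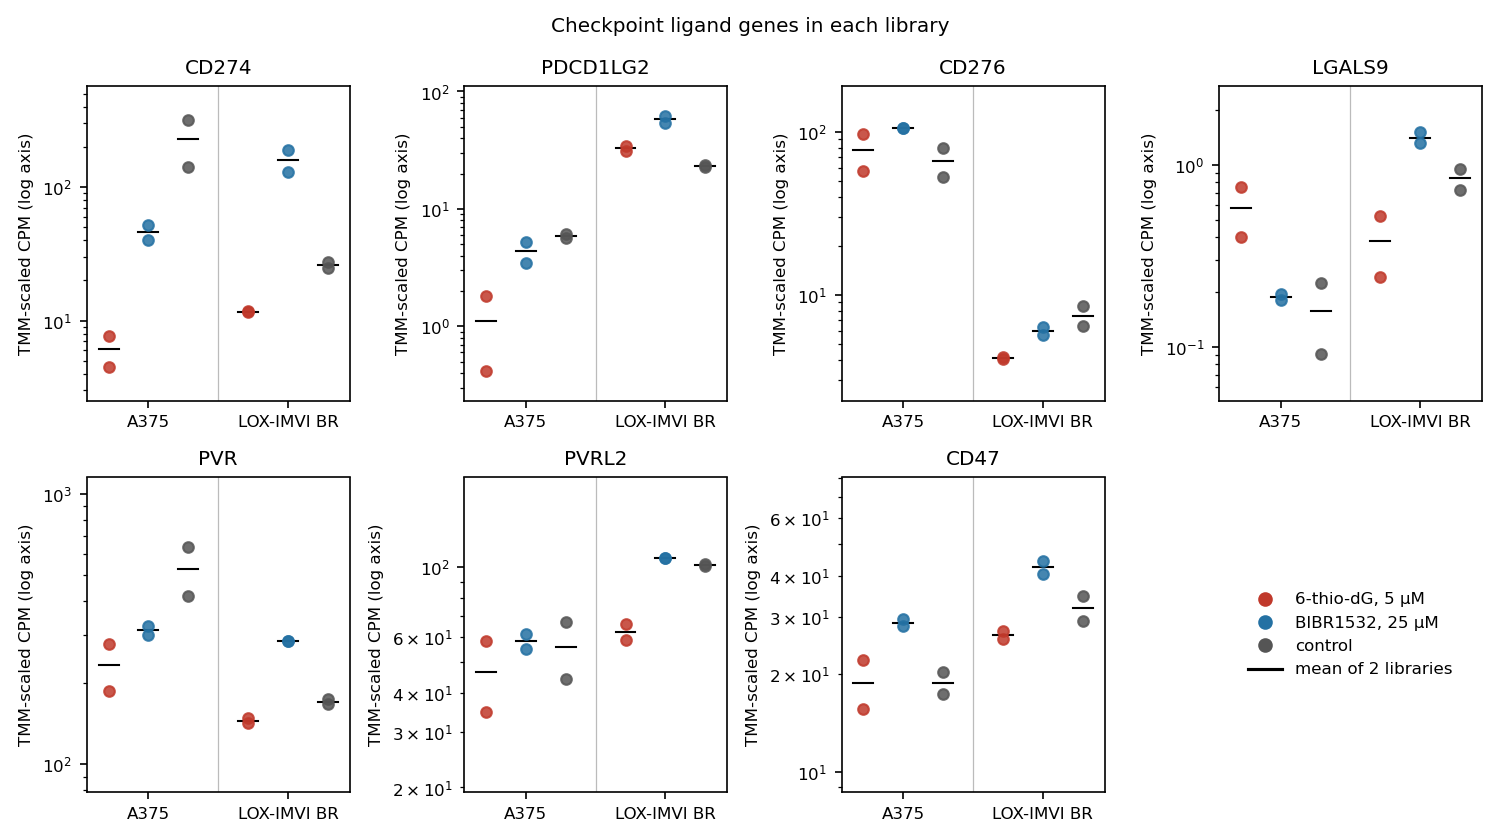
TMM-scaled CPM (log axis, a separate range per gene) of each of the 7 genes in each of the 12 libraries, with points for libraries and bars for the mean of 2. CD274 spans 4.51 to 317 CPM and changes its order of groups between the lines, and PDCD1LG2 and CD276 separate the lines.

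PDCD1LG2 lies next to CD274 on chromosome 9 and followed it in part. In A375 it was at 0.418 and 1.81 CPM with 6-thio-dG, 3.50 and 5.19 CPM with BIBR1532, and 5.61 and 6.16 CPM in control. The 6-thio-dG libraries, with 5 and 27 reads, lay below all others of the line, at a log2 fold change of -2.34 ± 0.46 over control. That PDCD1LG2 value was -1.69 without A375 6-thio-dG replicate 1 and -3.80 without replicate 2. With BIBR1532 the log2 fold change in A375 was -0.44 ± 0.40 (edgeR adjusted p = 0.489), and it was 0.32 after GC removal.

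In LOX-IMVI BR, PDCD1LG2 was at 31.2 and 34.5 CPM with 6-thio-dG, 61.9 and 53.8 CPM with BIBR1532, and 23.6 and 22.7 CPM in control. Both treated groups lay above control without overlap. Neither difference passed the threshold, with log2 fold changes of 0.51 ± 0.38 for 6-thio-dG (edgeR adjusted p = 0.42) and 1.32 ± 0.39 for BIBR1532 (0.076). The BIBR1532 value passed, among other alternatives, with DESeq2 (adjusted p = 0.0143), without the low-count filter (0.0227), after GC removal (0.00402), and without either A375 6-thio-dG library (0.00163 and 0.00164). The difference between the lines in the BIBR1532 effect was 1.76 ± 0.56 (edgeR adjusted p = 0.0878). In control cells PDCD1LG2 was 3.93-fold higher in LOX-IMVI BR than in A375 (log2 1.98 ± 0.40, edgeR adjusted p = 0.000943, and 1.36 after GC removal), the opposite direction to CD274.

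CD274 and PDCD1LG2 took different orders in the lines. Per kilobase of merged exons, CD274 stood at 6.39 CPM and PDCD1LG2 at 9.76 CPM in LOX-IMVI BR control, while in A375 control CD274 stood at 55.6 CPM and PDCD1LG2 at 2.48 CPM. With 6-thio-dG in LOX-IMVI BR the values were 2.84 for CD274 and 13.9 for PDCD1LG2. With BIBR1532 in LOX-IMVI BR they were 38.6 for CD274 and 24.4 for PDCD1LG2. Across the 12 libraries the Pearson correlation of the pair was 0.32 on the log2 scale, a description in which the lines form separate clusters.

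CD276 separated the lines more than the treatments. In A375 it was at 96.5 and 57.5 CPM with 6-thio-dG, 106 in each library with BIBR1532, and 52.6 and 79.9 CPM in control. CD276 in LOX-IMVI BR was at 4.01 and 4.14 CPM with 6-thio-dG, 5.69 and 6.32 CPM with BIBR1532, and 8.49 and 6.42 CPM in control. Control cells of LOX-IMVI BR had 8.90-fold less than those of A375 (log2 -3.15 ± 0.36, edgeR adjusted p = 4.55e-06). No tested contrast with control passed the threshold for CD276: the log2 fold changes over control were 0.68 ± 0.33 with BIBR1532 in A375 (edgeR adjusted p = 0.164), -0.87 ± 0.34 with 6-thio-dG in LOX-IMVI BR (0.097) and -0.31 ± 0.34 with BIBR1532 in LOX-IMVI BR (0.745).

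PVR, the poliovirus receptor CD155, was the highest of the 7 per kilobase in both controls, at 48.4 CPM per kilobase in LOX-IMVI BR and 150.3 in A375. In A375 it was at 277 and 187 CPM with 6-thio-dG, 324 and 301 CPM with BIBR1532, and 420.4 and 638 CPM in control. Both treated groups lay below control, at log2 fold changes of -1.19 ± 0.30 for 6-thio-dG and -0.76 ± 0.29 for BIBR1532 (edgeR adjusted p = 0.0886 for BIBR1532). PVR in LOX-IMVI BR was at 142 and 148 CPM with 6-thio-dG, 286 and 284 CPM with BIBR1532, and 174 and 167 CPM in control.

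PVR thus stood above control with BIBR1532 in LOX-IMVI BR (log2 0.74 ± 0.29, edgeR adjusted p = 0.217) and below it in A375, a difference between the lines of 1.5 ± 0.41 that did not pass (edgeR adjusted p = 0.0575). That difference passed, among other alternatives, with DESeq2 (adjusted p = 0.0103) and without either A375 6-thio-dG library (0.00582 and 0.00592). In LOX-IMVI BR, 6-thio-dG over BIBR1532 gave -0.98 ± 0.29 (edgeR adjusted p = 0.0279). This call was lost with upper-quartile factors (adjusted p = 0.22), with the replicate block (0.068), with symbol-named rows alone (0.0515), and without any single LOX-IMVI BR library (0.0513 to 0.191) or A375 BIBR1532 replicate 1 (0.0533). Control PVR was 3.10-fold lower in LOX-IMVI BR than in A375 (log2 -1.63 ± 0.30, edgeR adjusted p = 0.000391).

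PVRL2, the nectin CD112, ranged over 2.29-fold between its group means. In A375 the libraries lay between 34.7 and 67.2 CPM and the groups overlapped. In LOX-IMVI BR it was at 58.6 and 65.8 CPM with 6-thio-dG, 107 in each library with BIBR1532, and 101 and 102 CPM in control. The log2 fold change with 6-thio-dG there was -0.71 ± 0.32 (edgeR adjusted p = 0.148). In control cells it was higher in LOX-IMVI BR than in A375 by 0.87 ± 0.32 (edgeR adjusted p = 0.0339). That call was lost with upper-quartile factors (adjusted p = 0.0724), with the replicate block (0.162), and without A375 control replicate 1, A375 BIBR1532 replicate 1 or any single LOX-IMVI BR library (0.0543 to 0.13).

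CD47 ranged over 2.26-fold between group means. In A375 it was at 15.6 and 22.0 CPM with 6-thio-dG, 28.0 and 29.4 CPM with BIBR1532, and 20.3 and 17.4 CPM in control. CD47 in LOX-IMVI BR was at 27.2 and 25.6 CPM with 6-thio-dG, 44.5 and 40.6 CPM with BIBR1532, and 34.7 and 29.1 CPM in control. BIBR1532 libraries were the highest of each line, at log2 fold changes of 0.61 ± 0.29 in A375 (edgeR adjusted p = 0.162) and 0.41 ± 0.29 in LOX-IMVI BR (0.558). The A375 value was 1.77 after GC removal (adjusted p = 0.00388); CD47 has the lowest transcript GC content of the 7, at 38.4%. The control difference between the lines, 0.76 ± 0.29 (edgeR adjusted p = 0.0407), turned to -0.27 after GC removal. That CD47 call was also lost with upper-quartile factors (adjusted p = 0.0772), without the low-count filter (0.0964), with the replicate block (0.0659), and without A375 control replicate 2, either A375 BIBR1532 library or any single LOX-IMVI BR library (0.0717 to 0.233).

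LGALS9 was close to the limit of detection, with 1 to 28 counts in any library. It passed the low-count filter, also with the LOX-IMVI BR control libraries left aside. Its near-identical copies LGALS9B and LGALS9C, which can share its reads, held at most 4 counts in a library, so its values are uncertain. LGALS9 in LOX-IMVI BR was at 0.521 and 0.241 CPM with 6-thio-dG, 1.51 and 1.31 CPM with BIBR1532, and 0.954 and 0.728 CPM in control. Of the contrasts within LOX-IMVI BR the direct one of the compounds passed, at -1.89 ± 0.46 for 6-thio-dG over BIBR1532 (edgeR adjusted p = 0.00944), and it was lost with DESeq2 (adjusted p = 0.063), without LOX-IMVI BR 6-thio-dG replicate 2 (0.153) and without LOX-IMVI BR BIBR1532 replicate 1 (0.0606); without LOX-IMVI BR 6-thio-dG replicate 1 the LGALS9 value was -2.50 (0.0275). In A375 it had 9 and 6 counts with 6-thio-dG, 4 in each library with BIBR1532, and 6 and 1 counts in control. In the controls it stood at 0.841 ± 0.16 CPM in LOX-IMVI BR and 0.157 ± 0.0946 CPM in A375. No test is given there because the A375 control counts were so few.

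**Figure D2:**
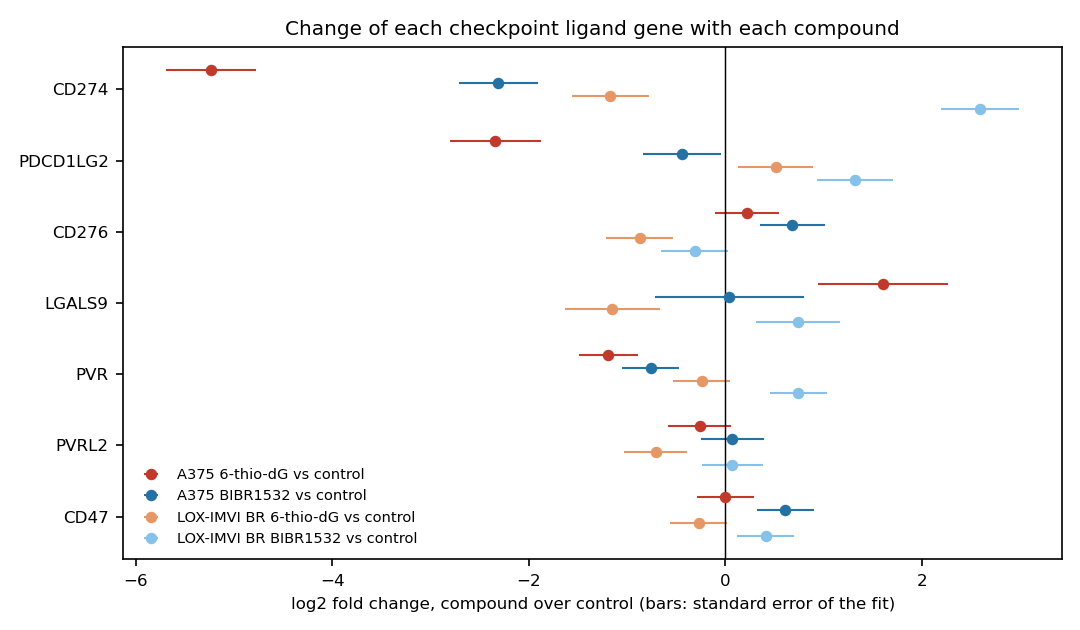
Log2 fold change of each compound over control (x axis, bars are the standard error of the fit) for the 7 genes and 4 comparisons. CD274 has the widest spread, from -5.23 with 6-thio-dG in A375 to 2.59 with BIBR1532 in LOX-IMVI BR.

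Counted over the set, 3 of 7 genes (CD274, PDCD1LG2 and PVR) were lower and 0 higher with 6-thio-dG in A375, where 8.21% of all 29114 tested rows were called lower, 9.86% higher and 18.1% in either direction. In 6-thio-dG over BIBR1532 in A375, 2 of 7 were lower and 0 higher, where 8.76% of rows were lower, 7.26% higher and 16% either. In the 6-thio-dG effect of LOX-IMVI BR minus A375, 2 of 7 were higher and 0 lower, where 2.48% of rows were higher, 3.06% lower and 5.54% either. Nothing is read from these 3 counts.

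With BIBR1532 in A375, 1 of 7 fell and 0 rose, where 7.29% of rows fell, 8.49% rose and 15.8% did either. The median log2 fold change was 0.04 over the 7 and -0.04 over all rows. With 6-thio-dG in LOX-IMVI BR, 0 of 7 were called by edgeR, where 9.81% of rows rose, 7.16% fell and 17% did either. There 4 of 7 had an unadjusted p under 0.05, as did 29.7% of all rows, DESeq2 called 1 of 7 and 12.5% of all rows with an adjusted p, and the medians were -0.71 over the 7 and 0.05 over all rows. With BIBR1532 in LOX-IMVI BR, 1 of 7 rose and 0 fell, where 2.9% of rows rose, 0.69% fell and 3.59% did either, and the medians were 0.74 over the 7 and 0.04 over all rows.

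Between the compounds in LOX-IMVI BR, 3 of 7 (CD274, PVR and LGALS9) were lower with 6-thio-dG than with BIBR1532, where 10.7% of rows were lower, 9.9% higher and 20.6% either, and all 7 had negative values. The BIBR1532 effect was higher in LOX-IMVI BR than in A375 for 1 of 7 genes, where 2.09% of rows were higher, 1.55% lower and 3.64% either. LGALS9 left aside, the controls of the lines differed for 6 of 6 genes, with 3 higher and 3 lower in LOX-IMVI BR, but 21.1% of rows were higher, 28.8% lower and 49.8% either in that contrast.

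The genes of the route that induces CD274 were called in both directions. Of 16 genes from interferon receptors to JAK-STAT signalling, 5 rose and 1 fell with BIBR1532 in A375, 0 rose and 4 fell with 6-thio-dG in LOX-IMVI BR, and 1 rose and 0 fell with BIBR1532 in LOX-IMVI BR. Of all rows, 8.49% rose and 7.29% fell in the first comparison, 9.81% and 7.16% in the second, and 2.9% and 0.69% in the third. The kinase gene JAK2 averaged 2.77 CPM with BIBR1532 and 7.93 CPM in control A375 cells (log2 -1.52 ± 0.48, edgeR adjusted p = 0.0442). The JAK2 call was lost in 16 of 23 alternatives, among them without any single A375 control or BIBR1532 library (adjusted p of 0.113 to 0.305) or LOX-IMVI BR library (0.0663 to 0.0675), and the value was -0.46 after GC removal.

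IRF1, the transcription factor that acts at the CD274 promoter after interferon, rose with BIBR1532 in both lines. CD274 fell with that compound in A375 and rose in LOX-IMVI BR, and the part of IRF1 in CD274 levels was not tested. IRF1 averaged 9.06 CPM with BIBR1532 and 2.82 CPM in control A375 cells (log2 1.73, edgeR adjusted p = 0.00664). In LOX-IMVI BR cells it averaged 10.6 CPM with BIBR1532 and 3.36 CPM in control (log2 1.65, edgeR adjusted p = 0.0154). The A375 call was lost without A375 BIBR1532 replicate 1 (adjusted p = 0.09) and with the libraries of the line alone (0.081). The LOX-IMVI BR call was lost without LOX-IMVI BR control replicate 1 (0.139) or 2 (0.277) or BIBR1532 replicate 1 (0.213).

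SOCS1, the feedback inhibitor of JAK signalling, rose with BIBR1532 in A375, to 2.60 CPM against 0.165 CPM in control (log2 3.97, edgeR adjusted p = 0.000175). It fell with 6-thio-dG in LOX-IMVI BR, to 0.387 CPM against 4.45 CPM in control (log2 -3.50, edgeR adjusted p = 6.58e-05). Both calls held in every alternative. JAK1 averaged 82.1 CPM with 6-thio-dG and 217 CPM in control LOX-IMVI BR cells (log2 -1.40, edgeR adjusted p = 0.0122), and SOCS3 43.8 against 121 CPM (log2 -1.46, 0.00511). The SOCS3 call was lost without LOX-IMVI BR 6-thio-dG replicate 1 (adjusted p = 0.0701) or 2 (0.0651). The JAK1 call was lost without either of them (0.114 and 0.0968) or either LOX-IMVI BR control library (0.0718 and 0.0792).

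MYC, reported as an activator of CD274, had levels that changed with BIBR1532 in the same directions as CD274. In A375 it averaged 23.0 CPM with 6-thio-dG, 90.9 CPM with BIBR1532 and 426 CPM in control, and it fell with BIBR1532 by a log2 value of -2.23 (edgeR adjusted p = 0.000253), a call that held in every alternative. In LOX-IMVI BR it averaged 539.8 CPM with 6-thio-dG, 1052 CPM with BIBR1532 and 417 CPM in control, and rose with BIBR1532 (log2 1.33, edgeR adjusted p = 0.0166). That rise was lost with upper-quartile factors (adjusted p = 0.0697), with the replicate block (0.0573), and without any single LOX-IMVI BR control (0.224 and 0.249) or BIBR1532 library (0.212 and 0.0692). With 6-thio-dG in LOX-IMVI BR, MYC stood above control, at 0.37 on the log2 scale, where CD274 stood below it. The shared direction with BIBR1532 was not particular to MYC. HIF1A averaged 34.1 CPM with BIBR1532 and 179.6 CPM in control A375 cells, and 132.6 and 98.45 CPM in LOX-IMVI BR. JUN and TEAD1 means also lay below control in A375 and above it in LOX-IMVI BR. Those of FOS, JUNB and NFKB1 lay above control in both lines. HIF1A averaged 57.1 CPM with 6-thio-dG in LOX-IMVI BR, below its control. The part of these genes in CD274 levels was not tested.

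Of the 12 other transcription factors reported at CD274, MYC included, 2 rose and 2 fell with BIBR1532 in A375, 0 rose and 1 fell with 6-thio-dG in LOX-IMVI BR, and 2 rose and 0 fell with BIBR1532 in LOX-IMVI BR. FOS, a subunit of AP-1, rose with BIBR1532 in both lines, by a log2 value of 1.84 in A375 (edgeR adjusted p = 0.00197) and 2.37 in LOX-IMVI BR (0.0016, and 0.0708 without LOX-IMVI BR control replicate 1). The other AP-1 genes of the list differed among themselves in A375. FOSL1 averaged 1550 CPM with BIBR1532 and 1554 CPM in control, JUN 314 and 489 CPM, and JUNB 477 and 247 CPM. In LOX-IMVI BR the means of all of them lay above control with BIBR1532. Of 12 genes that handle the PD-L1 protein, 0 rose and 2 fell with BIBR1532 in A375, 1 rose and 1 fell with 6-thio-dG in LOX-IMVI BR, and 0 were called with BIBR1532 in LOX-IMVI BR. Of all rows, 15.8%, 17% and 3.59% were called in the comparisons given for both lists, in that order. CMTM6, which keeps PD-L1 at the cell surface, had log2 values of 0.00 ± 0.39, -0.29 ± 0.39 and -0.21 ± 0.39 in those comparisons, none past the threshold.

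**Figure D3:**
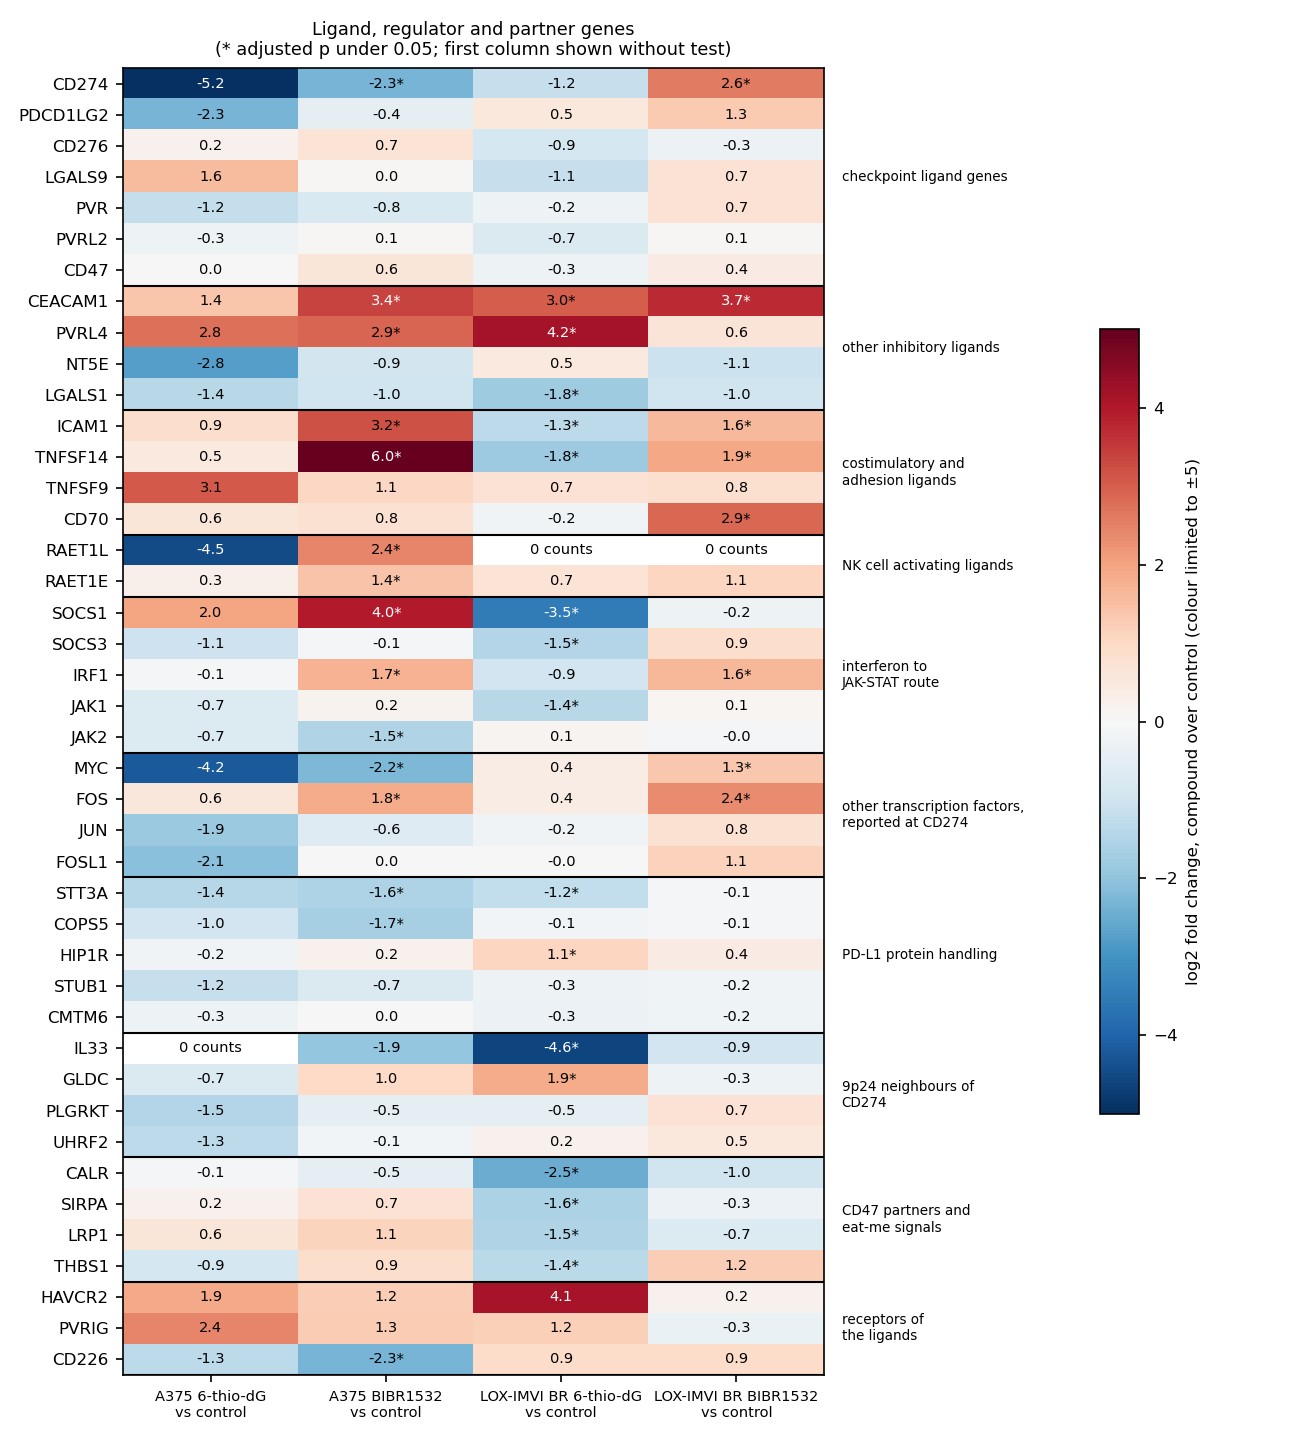
Log2 fold change of each compound over control for the 7 genes and for the named genes of each list, with stars at an edgeR adjusted p under 0.05 and no test in the first column or for HAVCR2. SOCS1 is 4.0 with BIBR1532 in A375 and -3.5 with 6-thio-dG in LOX-IMVI BR, and with BIBR1532 MYC is -2.2 in A375 and 1.3 in LOX-IMVI BR.

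Ligands that stimulate T cells or hold them to their target were called in both lines. Of all rows, 8.49% rose with BIBR1532 in A375, 2.9% rose with it in LOX-IMVI BR and 7.16% fell with 6-thio-dG in LOX-IMVI BR. Of 12 costimulatory and adhesion ligands 7 were tested; 3 rose with BIBR1532 in A375, 3 rose with it in LOX-IMVI BR and 2 fell with 6-thio-dG in LOX-IMVI BR. ICAM1, the adhesion ligand of LFA-1, averaged 563 CPM with BIBR1532 and 62.5 CPM in control A375 cells (log2 3.17, edgeR adjusted p = 5.2e-05), a call that held in every alternative. In LOX-IMVI BR it was 8.64 CPM with 6-thio-dG, 66.5 CPM with BIBR1532 and 21.3 CPM in control (log2 -1.30 and 1.64, edgeR adjusted p = 0.0132 and 0.00991). Those calls were lost without either control library of the line (adjusted p up to 0.0867 and 0.175); the first also without either 6-thio-dG library (0.128 and 0.0974) and with upper-quartile factors (0.0598), and the second also without BIBR1532 replicate 1 (0.151).

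CD70, a costimulatory ligand of CD27, rose with BIBR1532 in LOX-IMVI BR to 38.9 CPM against 5.26 CPM in control (log2 2.88, edgeR adjusted p = 0.000671), and the call held in every alternative. TNFSF14, the ligand LIGHT, averaged 3.73 CPM with BIBR1532 and 0.0374 CPM in control A375 cells (edgeR adjusted p = 7.64e-05). Its control libraries there lay at 0 and 0.0748 CPM, close to the limit of detection. The size of that rise is therefore uncertain, at log2 values of 5.53 to 9.18 over the alternatives. Of 18 other inhibitory ligands 15 were tested; 4 rose and 2 fell with BIBR1532 in A375, 2 rose and 1 fell with 6-thio-dG in LOX-IMVI BR, and 1 rose with BIBR1532 in LOX-IMVI BR. In those comparisons 15.8%, 17% and 3.59% of all rows were called. CEACAM1, an inhibitory adhesion molecule, reached 17.7 CPM with BIBR1532 in A375, against 1.66 CPM in control (log2 3.38, edgeR adjusted p = 3.51e-05). PVRL4, a nectin that also binds TIGIT, rose with 6-thio-dG in LOX-IMVI BR to 6.18 CPM against 0.344 CPM in control (log2 4.17, edgeR adjusted p = 7.74e-05) and with BIBR1532 in A375 to 92.7 CPM against 12.2 CPM (log2 2.92, 0.000255). The PVRL4 value in LOX-IMVI BR was 5.42 without control replicate 1 and 3.45 without control replicate 2. The calls of CD70, PVRL4, and of TNFSF14 and CEACAM1 in A375 held in every alternative.

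Of 9 ligands that activate natural killer cells 7 were tested. RAET1L and RAET1E, ligands of the receptor NKG2D, rose with BIBR1532 in A375, to 9.74 and 11.3 CPM against 1.91 and 4.27 CPM in control (edgeR adjusted p = 0.00169 and 0.00769). The RAET1E call was lost with the libraries of the line alone (adjusted p = 0.115) and without A375 BIBR1532 replicate 1 (0.0634) or 2 (0.0692). None of the list passed in LOX-IMVI BR with 6-thio-dG or BIBR1532, where 17% and 3.59% of all rows were called. With BIBR1532 in A375, 8.49% of all rows rose.

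4 of 5 partners of CD47 and signals for engulfment fell with 6-thio-dG in LOX-IMVI BR, where CD47 itself was at -0.27 ± 0.29 (edgeR adjusted p = 0.578). In that comparison 7.16% of all rows fell. With BIBR1532, 0 of the 5 were called in A375 or LOX-IMVI BR, where 15.8% and 3.59% of all rows were called. CALR, which encodes calreticulin, averaged 207 CPM with 6-thio-dG and 1160.0 CPM in control (log2 -2.48, edgeR adjusted p = 0.000318), a call that held in every alternative. SIRPA, the CD47 receptor, averaged 5.69 against 17.0 CPM (log2 -1.58, edgeR adjusted p = 0.00398), LRP1, a calreticulin receptor, 223 against 630.1 CPM (-1.50, 0.0116) and THBS1, a CD47 ligand, 4.35 against 11.2 CPM (-1.36, 0.0146). Each of these 3 calls was lost without either LOX-IMVI BR 6-thio-dG library (adjusted p of 0.0565 to 0.117), and those of LRP1 and THBS1 also without either control library of the line (0.0661 to 0.0895). The THBS1 call was lost with symbol-named rows alone as well (0.0541). In the same comparison the fibroblast markers, which COL1A1 dominates, summed to 21.8 and 22.7 CPM with 6-thio-dG, against 1676 and 1701 CPM in control; their part in the result was not tested.

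Of 10 receptors of the ligands, most of which belong to lymphocytes or myeloid cells, 6 were tested. HAVCR2, which encodes the galectin-9 receptor TIM-3, averaged 0.938 CPM with 6-thio-dG and 0.0479 CPM in control LOX-IMVI BR cells. It passed the low-count filter through that 6-thio-dG group, so no test is given. In the same groups the leukocyte gene PTPRC stood at 1.83 CPM with 6-thio-dG and 0.144 CPM in control. The other leukocyte markers lay on either side of control, such as CD163 (0.212 against 0.383 CPM) and CD4 (0.316 against 0.189 CPM). Of the 14, 13 lay under 1 CPM with 6-thio-dG and 5 were at 0 counts. Their part in the result was not tested.

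The genes around CD274 on 9p24 are given by count beside the shares of all rows. Of 13 listed neighbours, 0 rose and 2 fell with BIBR1532 in A375, 1 rose and 1 fell with 6-thio-dG in LOX-IMVI BR, and 0 were called with BIBR1532 in LOX-IMVI BR, where 15.8%, 17% and 3.59% of all rows were called. PLGRKT, the plasminogen receptor gene next to CD274 on the side away from PDCD1LG2, had log2 values of -0.48 ± 0.31 with BIBR1532 in A375 and 0.73 ± 0.31 with it in LOX-IMVI BR, neither past the threshold. RIC1, next to PDCD1LG2, was at -0.54 ± 0.41 and -0.26 ± 0.41 in those comparisons. The falls with BIBR1532 in A375 were JAK2 and the importin gene RANBP6 (log2 -2.18, edgeR adjusted p = 0.0398), and the RANBP6 call was also lost in 16 of 23 alternatives, among them with DESeq2 size factors (adjusted p = 0.0506), after GC removal (-1.09, 0.0571), and without any single A375 control or BIBR1532 library (0.136 to 0.28) or LOX-IMVI BR library (0.0598 to 0.0635). IL33, which encodes an alarmin cytokine, fell with 6-thio-dG in LOX-IMVI BR to 0.0974 CPM against 2.38 CPM in control (log2 -4.58, edgeR adjusted p = 0.000195). The IL33 value was -5.87 without LOX-IMVI BR 6-thio-dG replicate 1 and -3.85 without replicate 2. GLDC, a glycine cleavage enzyme gene, rose there to 1.49 CPM against 0.408 CPM (edgeR adjusted p = 0.00559), and the call was lost without LOX-IMVI BR control replicate 1 (adjusted p = 0.0575) or 2 (0.0988) or 6-thio-dG replicate 1 (0.0591). Farther out, the glutamate transporter gene SLC1A1 averaged 0.981 CPM with 6-thio-dG and 0.118 CPM in control LOX-IMVI BR cells (log2 2.97, edgeR adjusted p = 0.00559), a gene chosen after its values were seen and not fitted under the alternatives.

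**Figure D4:**
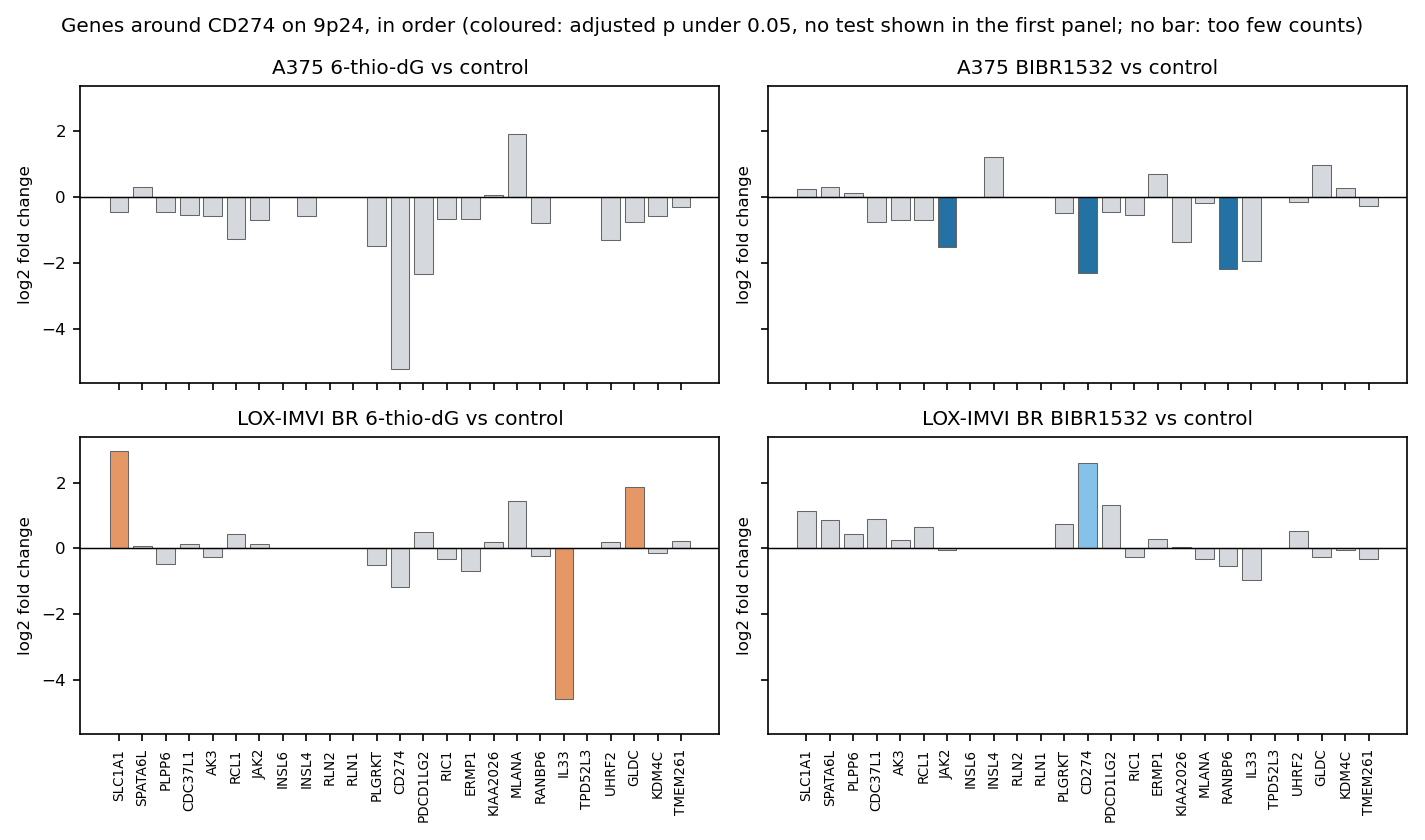
Log2 fold change of CD274 and its neighbours in gene order along 9p24 (x axis) in 4 comparisons, with colour at an edgeR adjusted p under 0.05 (no test in the first panel) and no bar where counts were too few or 0 in a group. With BIBR1532, CD274 stands at -2.31 in A375 and 2.59 in LOX-IMVI BR, and PLGRKT beside it at -0.48 and 0.73.

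Among 11355 genes that reached 5 CPM in some group, the levels most like those of CD274 over the 12 libraries belonged to KCNT2 (Pearson r = 0.962), IARS (0.955), DIS3L (0.947), SNX24 (0.936) and RCAN1 (0.936). Those most like PDCD1LG2 were SH3BGRL2 and FAM19A2 (0.987 each), and most like PVR were AFG3L2 (0.978) and PHC2 (0.976). The pairs share libraries, depth and the difference between the lines, so these are descriptions.

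**Figure D5:**
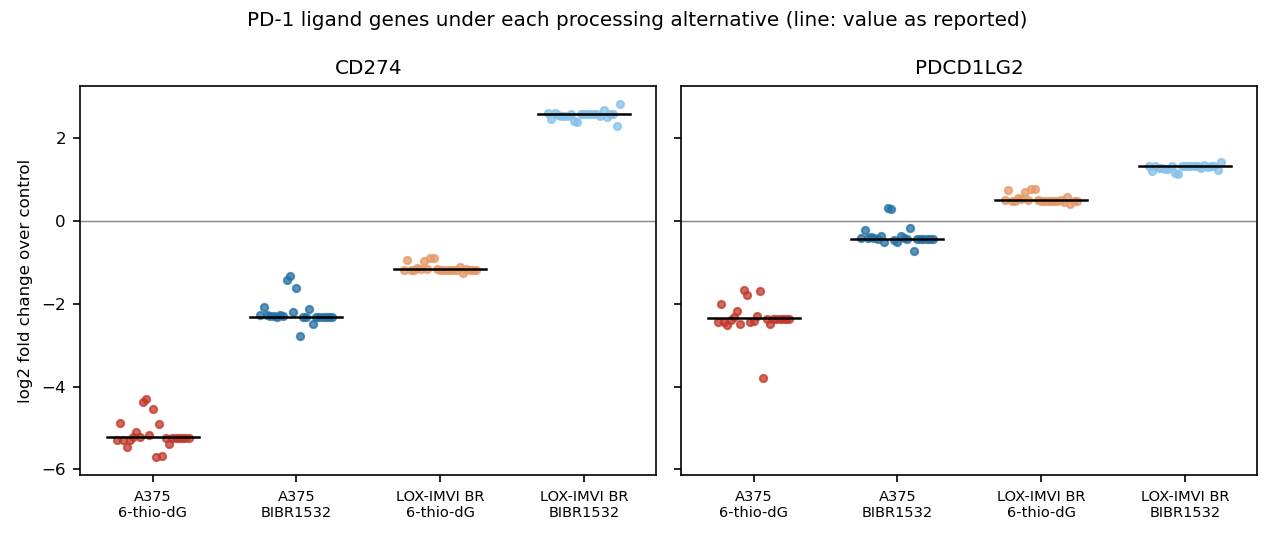
Log2 fold change over control of CD274 and PDCD1LG2 under each processing alternative (points) beside the value as reported (line), by line and compound. CD274 stays between -2.78 and -1.32 with BIBR1532 in A375 and between 2.30 and 2.83 in LOX-IMVI BR, while PDCD1LG2 crosses 0 with BIBR1532 in A375.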

How the data were processed

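RNA sequencing libraries of total RNA from 2 melanoma lines were made with TRIzol and a TruSeq kit that keeps no strand, per the labels, so reads of overlapping genes on opposite strands cannot be told apart. The authors deposited raw counts, whole numbers for 75253 rows in 12 libraries. The submitters' processing notes name STAR, Picard, GATK, featureCounts 1.5.1 and the builds hg19 and GRCh37, with roles not given in the sources used here. 4 rows with repeated date names, at most 0.000913% of a library, were dropped.

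Counts were tested in edgeR 4.0.16 (R 4.3.3, limma 3.58.1, data.table version 1.17.8): filterByExpr, TMM scaling, 1 mean per group over all 12 libraries, robust quasi-likelihood with 6 residual degrees of freedom, and Benjamini-Hochberg adjustment over 29114 rows at 0.05. The biological coefficient of variation was 25.8%. The 9 comparisons set either compound against control and 6-thio-dG against BIBR1532 within a line, and the effects and the controls between the lines. The standard error is the log2 fold change over the square root of F. Likeness was Pearson r of log2(CPM + 1). Exon lengths and GC content came from GENCODE 29, and promoter sequences from RefSeq. The members and lists were chosen with earlier results of these data known. Named genes were all 7 members, up to 4 genes per list with the smallest adjusted p with any compound, and MYC, JAK2, IRF1 and CMTM6; the text describes a selection, the heat map of regulators shows the named list genes, and 1 gene that the rule names is not reported here. HIF1A, TEAD1, JUNB and NFKB1 were named beside MYC and FOS after their values were seen. The neighbour list and the wider gene order were taken without coordinates. The script was tested on simulated data. Alternatives were other scaling, DESeq2 1.42.0, other filters, fits of the line or symbol rows alone, replicate blocks, GC removal and leaving out each library.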

Additional observations from a re-analysis of the deposited data

Results flagged for a closer look

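The BIBR1532 effect on CD274 ran in opposite directions, with LOX-IMVI BR minus A375 at 4.91 on the log2 scale (edgeR adjusted p = 0.000483); every library of LOX-IMVI BR lay above its controls and every library of A375 below. The CD274 difference uses the A375 control libraries of the contrast by which the set was chosen, and its p-value does not allow for that. For the other genes below, every treated library of each line moved to the opposite side of its controls. The PDCD1LG2 difference was 1.76 with BIBR1532 (edgeR adjusted p = 0.0878) and 2.85 with 6-thio-dG; for 6-thio-dG no test is given, since the genes were chosen on its A375 libraries. The CD276 difference with BIBR1532 was -0.99 (edgeR adjusted p = 0.239) and that of PVR was 1.5 (edgeR adjusted p = 0.0575). The LGALS9 difference with 6-thio-dG was -2.75, likewise with no test given, and its A375 libraries held 1 to 9 counts.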

How the results depend on the processing

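The call of CD274 with BIBR1532 in A375, in the direct contrast of the compounds in LOX-IMVI BR, in the BIBR1532 difference between the lines and between the controls held in every alternative. Counts of the 7 members called were 1 with 6-thio-dG in A375 when the libraries of the line alone were fitted (5.11% of all rows called), against 3 (18.1%). For BIBR1532 in A375 they were 4 after GC removal (30.7%), with or without the replicate block, and 2 with a crossed replicate block chosen after seeing the data (17.1%), against 1 (15.8%). For 6-thio-dG in LOX-IMVI BR they were 1 with DESeq2 (12.5%) and without the low-count filter (10%), 6 with the line alone (62.8%), 3 after GC removal (28.8%) with or without the block and 2 crossed (19.1%), against 0 (17%). For BIBR1532 in LOX-IMVI BR they were 2 with DESeq2 (4.72%), without the filter (2.66%) and crossed (4.53%), 4 with the line alone (44.8%) and 3 after GC removal (11.7%) with or without the block, against 1 (3.59%). For 6-thio-dG against BIBR1532 they were 1 with the line alone (6.68%) and 5 after GC removal (30%) with or without the block in A375, against 2 (16%), and 7 with the line alone (66.9%) and 5 after GC removal (31.6%) in LOX-IMVI BR, against 3 (20.6%). For the 6-thio-dG difference between the lines they were 5 after GC removal (19.7%) with or without the block, against 2 (5.54%), and for the BIBR1532 difference 3 with DESeq2 (9.41%) and without the filter (5.15%), 2 with 1 CPM in 2 libraries (4.06%), with symbol rows alone (4.07%) and crossed (5.47%), and 4 after GC removal (15.6%) with or without the block, against 1 (3.64%). The cause was not tested. The counts that use the A375 6-thio-dG libraries are a description, since the set was chosen on those libraries, and nothing is read from them.

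Leaving out each library gave CD274 log2 values over control of -5.71 to -4.54 with 6-thio-dG and -2.78 to -1.61 with BIBR1532 in A375. In LOX-IMVI BR they were -1.26 to -1.11 with 6-thio-dG and 2.30 to 2.83 with BIBR1532. Such fits leave a group without a replicate, so no counts of members called are given for them.

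Signs turned only for values outside the threshold, except the control contrast of CD47. With 6-thio-dG in A375, CD276 was -0.02 without the filter and -0.21 to 0.53 leaving out each library, with -0.07 without A375 control replicate 1; PVRL2 was 0.20 with upper-quartile factors and -0.68 to 0.06 leaving out each library (0.05 without A375 control replicate 2); CD47 was 0.38 with upper-quartile factors, 0.02 with the line alone, 0.16 with symbol rows, 1.11 after GC removal, 1.06 with the block as well, and -0.29 to 0.21 leaving out each library, with 0.10 and 0.21 without A375 control or 6-thio-dG replicate 1. With BIBR1532 in A375, PDCD1LG2 was 0.32 after GC removal and 0.29 with the block as well, LGALS9 was 0.00 crossed and -0.26 to 1.00 leaving out each library, with -0.26 without A375 control replicate 2, and PVRL2 was -0.20 to 0.40 leaving out each library, with -0.20 and -0.01 without A375 control or BIBR1532 replicate 1. With BIBR1532 in LOX-IMVI BR, PVRL2 was -0.05 with upper-quartile factors. The LGALS9 BIBR1532 difference was -0.26 to 0.99 leaving out each library, the lowest without A375 control replicate 1. Between the controls, CD47 was -0.27 after GC removal and -0.48 with the block as well.

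In A375 the replicate differences of 6-thio-dG and BIBR1532 correlated at 0.31, and those of each with control at -0.09 and -0.12. The LOX-IMVI BR ones correlated at 0.02, -0.01 and 0.03. What lies behind the 0.31 was not tested. The replicate block left CD274 at -2.30 with BIBR1532 in A375 and 2.58 in LOX-IMVI BR. Calls of PVR, PVRL2, CD47 and MYC named above were lost with it. Upper-quartile factors moved the median of all rows with 6-thio-dG to 0.432 in A375, against 0.031, and to 0.278 in LOX-IMVI BR, against 0.049; the share of called rows that were higher was 80% against 54.6% in A375 and 73.5% against 57.8% in LOX-IMVI BR. Depth limits LGALS9.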
